A study of Mus musculus with 6 samples.

Results

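Glutamate is the main fast transmitter that primary afferent neurons release onto the spinal cord, and 10 genes of its release and reception were followed here in dorsal root ganglia (DRGs), the ganglia that hold the cell bodies of these neurons. The members were taken by symbol from the table of read counts: the vesicular glutamate transporters *Slc17a6* and *Slc17a7*, the AMPA receptor subunits *Gria1*, *Gria2*, and *Gria4*, the kainate receptor subunits *Grik1* and *Grik5*, the NMDA receptor subunit *Grin1*, and the metabotropic receptors *Grm7* and *Grm8*. All 10 were found among the 48440 genes of the table, and all 10 passed the filter on low counts, which left 18593 genes. RNA sequencing was done on ipsilateral L3/4 DRGs of male mice whose genotype is labelled WT, after microinjection into the unilateral L3/4 DRGs. The control virus of 3 libraries was AAV5-*Gfp*, an adeno-associated virus that carries green fluorescent protein, and the other 3 libraries had AAV5-*V1* together with AAV5-*V2* (AAV5-*V1+V2*), vectors for transcript variants V1 and V2 of *NIS-lncRNA*, a long noncoding RNA of the DRG. The text deposited with the data gives harvest at 5 weeks and, in another sentence, 4 weeks after microinjection. Ages, the promoter in these vectors, and the number of mice behind a library are not given in the sources used here, so p-values measure only the spread between these libraries, which may be technical. Each group received its own virus preparation, so the transcripts and the preparation cannot be told apart, and the overexpressed transcripts themselves were not analysed here.

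Vesicular glutamate transporters load glutamate into synaptic vesicles, with VGLUT2 (*Slc17a6*) in most DRG neurons and VGLUT1 (*Slc17a7*) mainly in large myelinated ones. AMPA, kainate, and NMDA receptors are ion channels built from subunits and opened by glutamate, whereas metabotropic receptors act through G proteins. On the central terminals of afferents, kainate and NMDA receptors and the inhibitory group III metabotropic receptors adjust transmitter release.

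The members lie on 7 chromosomes of GRCm38, the build named in the submitters' processing notes. In GENCODE M21, *Slc17a6* is at chr7:51622006-51671119 on the plus strand, *Slc17a7* at chr7:45163949-45176142 (plus), *Gria1* at chr11:57011387-57330244 (plus), *Gria2* at chr3:80681450-80802835 (minus), and *Gria4* at chr9:4417896-4796234 (minus). *Grik1* is at chr16:87895900-88290265 (minus), *Grik5* at chr7:25009849-25072346 (minus), *Grin1* at chr2:25291181-25319187 (minus), *Grm7* at chr6:110645581-111567230 (plus), and *Grm8* at chr6:27275119-28135178 (minus). The gene span, from the start to the end of the gene with its introns, runs from 12.2 kb for *Slc17a7* to 921.6 kb for *Grm7*, and exons take up 44.2% of the former and 0.639% of the latter. An antisense gene overlaps exons of *Grm7* (*Gm20387*, 40 to 79 counts in the 6 libraries) and of *Grin1* (*Grin1os*, 0 to 2 counts). The use of strand in the counting is not given in the sources used here, so reads of these genes and of their antisense partners cannot be told apart, although *Grm7* itself had 6637 to 15370 counts.

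Promoter sequences show what lies before the start of these genes. RefSeq windows (GRCm38.p6) were found for 8 of the 10 members, all but *Gria1* and *Grik1*, and the 250 bases before the start lay outside the annotated gene for 4 of them. These 4 are printed, 5′ to 3′ on the strand of the gene, with the GC box GGGCGG (or its reverse complement CCGCCC) in capitals: both transporters, an AMPA subunit, and the NMDA subunit.
*Slc17a6*, chr7:51621580-51621829, plus: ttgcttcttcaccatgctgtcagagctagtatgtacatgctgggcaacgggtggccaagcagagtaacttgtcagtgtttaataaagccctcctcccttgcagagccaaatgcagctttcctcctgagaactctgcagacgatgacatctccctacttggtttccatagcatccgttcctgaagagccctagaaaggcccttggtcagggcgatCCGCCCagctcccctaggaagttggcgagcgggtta
*Slc17a7*, chr7:45163671-45163920, plus: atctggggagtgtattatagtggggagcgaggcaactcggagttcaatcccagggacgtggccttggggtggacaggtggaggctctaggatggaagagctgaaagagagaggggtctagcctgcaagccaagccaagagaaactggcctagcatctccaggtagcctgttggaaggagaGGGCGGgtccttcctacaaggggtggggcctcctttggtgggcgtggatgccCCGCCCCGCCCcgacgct
*Gria4*, chr9:4796235-4796484, minus: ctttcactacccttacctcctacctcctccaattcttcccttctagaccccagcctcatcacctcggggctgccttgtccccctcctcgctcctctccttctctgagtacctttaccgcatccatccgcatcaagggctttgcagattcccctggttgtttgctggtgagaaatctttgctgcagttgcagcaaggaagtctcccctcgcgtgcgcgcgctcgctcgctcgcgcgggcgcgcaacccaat
*Grin1*, chr2:25319188-25319437, minus: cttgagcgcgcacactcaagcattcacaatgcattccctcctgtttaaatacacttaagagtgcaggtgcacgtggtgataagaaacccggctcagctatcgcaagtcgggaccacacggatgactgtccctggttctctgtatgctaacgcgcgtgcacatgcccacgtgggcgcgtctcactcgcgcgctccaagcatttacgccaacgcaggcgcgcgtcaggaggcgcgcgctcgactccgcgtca
The GC box, a binding site of SP family factors, was present 3 times before *Slc17a7*, where a pair of matches overlap, 1 time before *Slc17a6*, and in neither receptor window shown. Over the 8 members, each with its most upstream start, 5 windows held it, against 32.7% of 32851 windows of the same length. Those 32851 include every listed start of a gene, so the choice of windows differs. Of the 5, the windows of *Grik5*, *Grm7*, and *Grm8* did not lie outside the annotated gene. GC content was 53.2% for *Slc17a6*, 61.2% for *Slc17a7*, and 58.8% for both *Gria4* and *Grin1*, with a median of 52.4% over all windows.

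The depth was even, with totals of 32618252 to 34764282 counts in the AAV5-*Gfp* libraries and 32025612 to 34228594 in those with AAV5-*V1+V2*. Counts were scaled by edgeR's TMM method to CPM, a count relative to the scaled total of its library, and compared with its quasi-likelihood test, with a Benjamini-Hochberg adjusted p under 0.05 over all genes tested as the threshold. Pan-neuronal markers were abundant in all 6 libraries, led by the neurofilament genes *Nefm* and *Nefl* and the tubulin gene *Tubb3*. Markers of spinal cord and central glia were low. Their 10 genes summed to between 16.3 and 22.3 CPM, and 7 of them had at most 10 counts in any library, among them the defining markers *Olig2* and *Slc32a1* with at most 1. The other 3 were *Gfap*, *Aqp4*, and *Gjb6*, with 131 to 338 counts in a library. Of these *Gfap*, a gene of astrocytes and of activated satellite glia, was higher with AAV5-*V1+V2* (4.52, 4.30, and 4.20 CPM against 10.3, 6.22, and 6.50, log2 fold change 0.82, adjusted p = 0.0406 by edgeR), and its part in the lower glutamate genes was not tested. AAV5-*Gfp* replicate 2 stood apart in skeletal muscle genes such as *Myh4*, at 334 CPM summed over 5 genes against 6.73 to 95.4 CPM in the other libraries.

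Between AAV5-*V1+V2* and AAV5-*Gfp*, 7 of the 10 glutamate genes fell and 0 rose, where 5.27% of all genes tested fell and 10.1% rose. The genes that fell were *Grik1*, *Grm7*, *Gria4*, *Gria1*, *Grin1*, *Grm8*, and *Grik5*, by 21.3% (*Grik5*) to 41.9% (*Grik1*), while *Gria2*, *Slc17a6*, and *Slc17a7* did not pass. All 10 log2 fold changes were negative, as 50% of those of all genes were, with a median of -0.50 against -0.0003 over all genes. For 9 of the 10, every AAV5-*V1+V2* library lay below every AAV5-*Gfp* library, as 22% of all genes did. This was not particular to the members. Of the 19 pan-neuronal markers, 19 were negative and 14 lay apart in this way. Of 10 unmyelinated nociceptor markers 9 were negative and 8 lay apart so, and of 8 myelinated afferent markers 7 and 4. At an unadjusted p under 0.05, edgeR's test had 9 members lower and 0 higher, where 15.5% and 19.2% of all genes were. DESeq2 called 9 members lower (8.64% of all genes) and 0 higher (12.9%), and limma-voom 5 lower (4.53%) and 0 higher (7.64%). In bulk ganglia, fewer neurons and less of an RNA per neuron cannot be told apart. Beside the lower glutamate genes, the 19 pan-neuronal markers reached a sum of 10370 to 11370 CPM in the AAV5-*Gfp* libraries but 6584 to 9665 CPM in those with AAV5-*V1+V2*. The 13 leukocyte markers, among them *Lyz2*, *Ptprc*, and *Jchain*, summed to 144 to 215 CPM and to 736 to 1878, and 11 of the 13 rose. None of the 13 was at or under 3 counts in every library, and their part in the lower glutamate genes was not tested. The calls depended on the libraries that entered the fit. Without AAV5-*Gfp* replicate 1, 2, or 3, no member passed (0 of 10), with 9, 9, and 8 at an unadjusted p under 0.05, and without AAV5-*V1+V2* replicate 2 only *Gria1* did. In those 4 fits 0.311%, 0%, 0%, and 0.794% of all genes passed as lower. At an unadjusted p under 0.05 in edgeR's test, 2192 of 18975, 2029 of 18917, and 1815 of 18947 genes were lower without AAV5-*Gfp* replicate 1, 2, or 3. Without AAV5-*V1+V2* replicate 1, 8 members passed (5.79% of all genes), and without replicate 3, 9 did (7.63%).

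**Figure D1:**
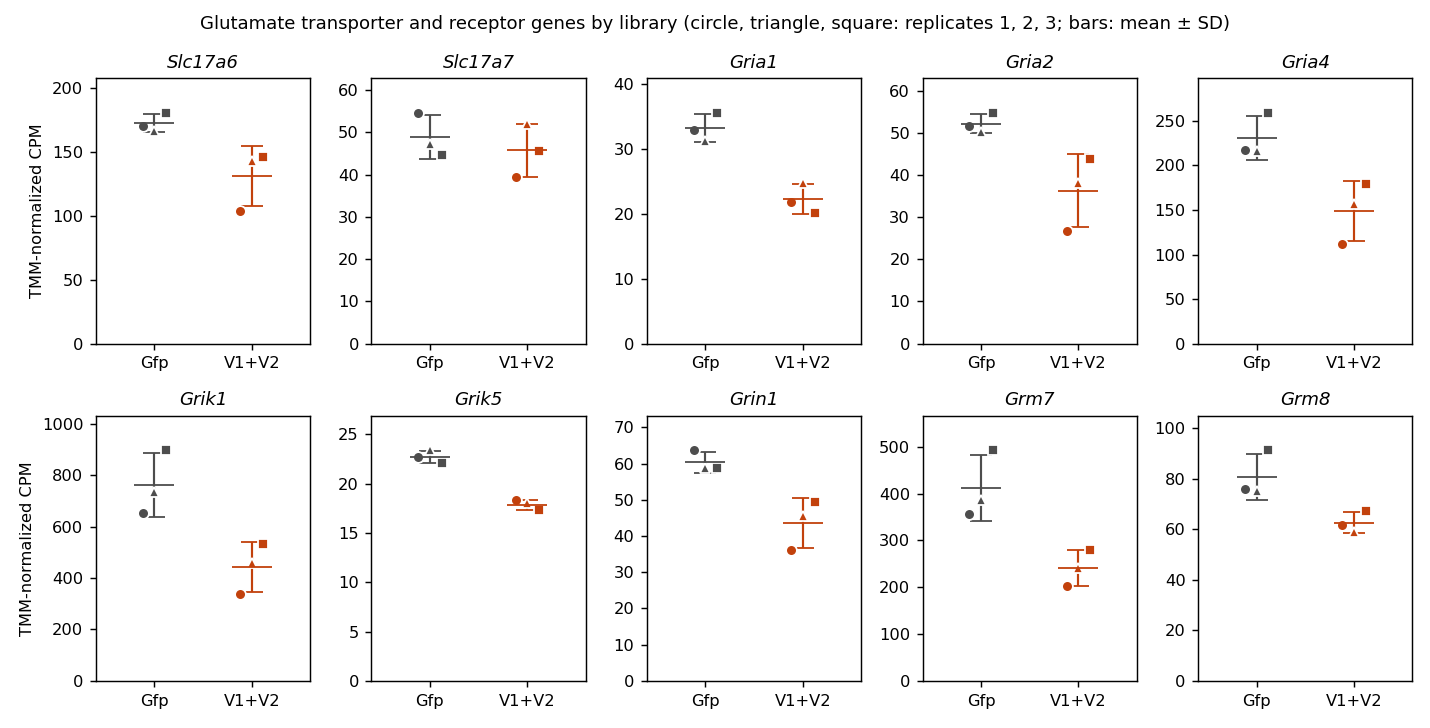
TMM-normalized CPM (y axis, starting at 0) of each of the 10 genes in the 3 AAV5-*Gfp* (grey) and 3 AAV5-*V1+V2* (orange) libraries, with a horizontal line for the mean and bars for the SD. In 9 of the 10 panels the groups do not overlap, and the overlapping one is *Slc17a7*.

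Of the vesicular transporters, which fill synaptic vesicles with glutamate, neither passed the test. In the order of replicates 1 to 3, kept for every gene below, *Slc17a6* had 170, 167, and 181 CPM with AAV5-*Gfp*, against 104, 143, and 146 CPM with AAV5-*V1+V2*. The groups did not overlap, and AAV5-*V1+V2* replicate 1 lay far below the other libraries. The log2 fold change was -0.40 (standard error 0.13, 95% interval -0.71 to -0.092), with an adjusted p of 0.0790 from edgeR's test. Without AAV5-*V1+V2* replicate 1 the spread narrowed and the gene passed with a smaller difference (log2 fold change -0.25, adjusted p = 0.0249 by edgeR), as it did without AAV5-*V1+V2* replicate 3 (-0.47, 0.0497) and in DESeq2 (0.0251). *Slc17a7* was at 54.6, 47.3, and 44.6 CPM with AAV5-*Gfp* and at 39.5, 52.0, and 45.7 CPM with AAV5-*V1+V2*. These groups overlapped, with a log2 fold change of -0.10 (95% interval -0.37 to 0.18, adjusted p = 0.598 by edgeR), and the estimate turned to 0.0035 without AAV5-*V1+V2* replicate 1.

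Of the AMPA subunits, which form the channels of fast excitatory transmission, *Gria1* and *Gria4* fell. *Gria1*, encoding GluA1, had 32.9, 31.3, and 35.5 CPM with AAV5-*Gfp* and 21.8, 24.8, and 20.2 CPM with AAV5-*V1+V2*. The libraries of each group lay close together, AAV5-*V1+V2* replicate 3 was the lowest, and the groups did not overlap. It had the smallest adjusted p of the 10 genes (log2 fold change -0.58, standard error 0.096, 95% interval -0.80 to -0.35, adjusted p = 0.0165 by edgeR). *Gria4*, encoding GluA4, had 217, 216, and 259 CPM with AAV5-*Gfp* and 112, 156, and 179 CPM with AAV5-*V1+V2*. Both groups spread widely without overlap, and AAV5-*V1+V2* replicate 1 was again the lowest. Its log2 fold change was -0.63 (standard error 0.17, 95% interval -1.02 to -0.23, adjusted p = 0.0474 by edgeR), just inside the threshold, and limma-voom left it just outside (adjusted p = 0.0520). *Gria2*, encoding the GluA2 subunit that keeps calcium out of the channel, had 51.7, 50.3, and 54.8 CPM with AAV5-*Gfp* and 26.8, 38.2, and 43.9 CPM with AAV5-*V1+V2*. The groups did not overlap, but the AAV5-*V1+V2* libraries were far apart. The log2 fold change of -0.53 (standard error 0.16, 95% interval -0.91 to -0.14) missed the threshold with an adjusted p of 0.0691 from edgeR's test, and passed in DESeq2 (0.0165) and without AAV5-*V1+V2* replicate 1 (0.0260) or 3 (0.0218).

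Both kainate subunits fell, and *Grik1* had the largest log2 fold change of the 10 genes. *Grik1* encodes GluK1, the kainate subunit characteristic of small DRG neurons, and had 651, 734, and 897 CPM with AAV5-*Gfp* and 338, 458, and 531 CPM with AAV5-*V1+V2*. In neither group were the libraries close together, yet the highest AAV5-*V1+V2* library was below the lowest AAV5-*Gfp* library. Its log2 fold change was -0.78 (standard error 0.19, 95% interval -1.22 to -0.34, adjusted p = 0.0359 by edgeR). *Grik5* encodes GluK5, which forms channels only together with subunits such as GluK1. It had 22.7, 23.4, and 22.1 CPM with AAV5-*Gfp* and 18.3, 18.0, and 17.3 CPM with AAV5-*V1+V2*, the tightest groups among the members. *Grik5* differed by a log2 fold change of -0.35 (standard error 0.070, 95% interval -0.51 to -0.18, adjusted p = 0.0239 by edgeR).

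*Grin1*, which encodes the GluN1 subunit present in every NMDA receptor, fell as well. It had 63.6, 58.8, and 58.6 CPM with AAV5-*Gfp* and 36.1, 45.4, and 49.3 CPM with AAV5-*V1+V2*. The groups did not overlap, and AAV5-*V1+V2* replicate 1 was the lowest library. The log2 fold change was -0.47 (standard error 0.12, 95% interval -0.74 to -0.20, adjusted p = 0.0381 by edgeR). Its estimate ran from -0.56 without AAV5-*V1+V2* replicate 3 to -0.35 without AAV5-*V1+V2* replicate 1.

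Both group III metabotropic receptors, which inhibit transmitter release from the terminals that carry them, fell. *Grm7* had 357, 387, and 493 CPM with AAV5-*Gfp* and 202, 242, and 279 CPM with AAV5-*V1+V2*. The groups were well apart, and AAV5-*Gfp* replicate 3 stood above the other libraries. *Grm7* differed with a log2 fold change of -0.77 (standard error 0.16, 95% interval -1.15 to -0.40, adjusted p = 0.0246 by edgeR). *Grm8* had 76.1, 75.2, and 91.3 CPM with AAV5-*Gfp* and 61.8, 58.9, and 67.2 CPM with AAV5-*V1+V2*. The groups did not overlap, though the gap between them was small. A log2 fold change of -0.37 (standard error 0.095, 95% interval -0.59 to -0.15) passed with an adjusted p of 0.0430 from edgeR's test, and limma-voom gave 0.0512.

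Within each group the same libraries were often the extremes. AAV5-*V1+V2* replicate 1 was the lowest of its group for 7 of the 10 genes, and the same library had the lowest summed level of pan-neuronal markers (6584 CPM) and the highest of leukocyte markers (1878 CPM). AAV5-*V1+V2* replicate 3 was the highest of its group for 7 genes, and so was AAV5-*Gfp* replicate 3. The share of all genes with the same extremes is not given here, so these counts cannot be set against it.

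To set the members against neuronal RNA in the same library, libraries were rescaled by their summed counts of the 19 pan-neuronal markers. *Nefm*, *Nefl*, and *Tubb3* held 54.0% to 56.7% of that sum. A scale from the median log ratio of the same markers, in place of their sum, called 0 of the 10 members in either direction in edgeR's test. *Grik1* then had the lowest estimate (-0.38, adjusted p = 0.063 by edgeR). The share of all genes called in that fit is not given here. The rescaling by the sum raised the median log2 fold change of all genes by 0.39, and 0.0753% of genes were then called lower and 6.59% higher. On this scale 0 of the 10 members were called in either direction in edgeR's test, with 3 lower and 0 higher at an unadjusted p under 0.05, where 1.24% of all genes were lower and 36.8% higher. The members' median log2 fold change was -0.14, and 7 of the 10 were negative, against 13.2% of all genes. *Slc17a6* per neuronal RNA was almost level across the libraries, at 149, 153, and 151 rescaled CPM with AAV5-*Gfp* and 150.0, 149, and 144 with AAV5-*V1+V2* (log2 fold change -0.034, 95% interval -0.28 to 0.21). *Slc17a7* (0.28), *Grik5* (0.056), and *Grm8* (0.032) had positive estimates on this scale, opposite to their sign on the TMM scale, and the intervals of all 3 included 0.

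The rescaling moved the members by similar amounts, so those with the largest TMM differences stayed lowest relative to the neuronal markers. None was called in the fit to all 6 libraries. *Grik1* was at 571, 674, and 750.4 rescaled CPM with AAV5-*Gfp* and at 489, 478, and 523 with AAV5-*V1+V2* (log2 fold change -0.42, 95% interval -0.70 to -0.15, adjusted p = 0.0658 by edgeR). *Grm7* was at 313, 355, and 412 against 292, 253, and 275 (-0.40, 95% interval -0.70 to -0.10, adjusted p = 0.0844 by edgeR). *Gria4* had a log2 fold change of -0.27 on this scale (adjusted p = 0.123 by edgeR). For these 3 genes and *Gria2* the groups still did not overlap, as for 3.13% of all genes. The outcome depended on AAV5-*V1+V2* replicate 1. Without it, *Gria4* (adjusted p = 0.0422), *Grik1* (0.0270), and *Grm7* (0.0196) were called lower on the neuronal scale by edgeR, and without AAV5-*V1+V2* replicate 3, *Grik1* was (0.0402). The share of all genes called lower in these fits is not given here, so these calls cannot be set against it. *Gria1*, the clearest call on the TMM scale, was at 28.9, 28.7, and 29.7 rescaled CPM against 31.5, 25.8, and 19.9, so its AAV5-*V1+V2* libraries spread widely on this scale and overlapped the AAV5-*Gfp* libraries.

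**Figure D2:**
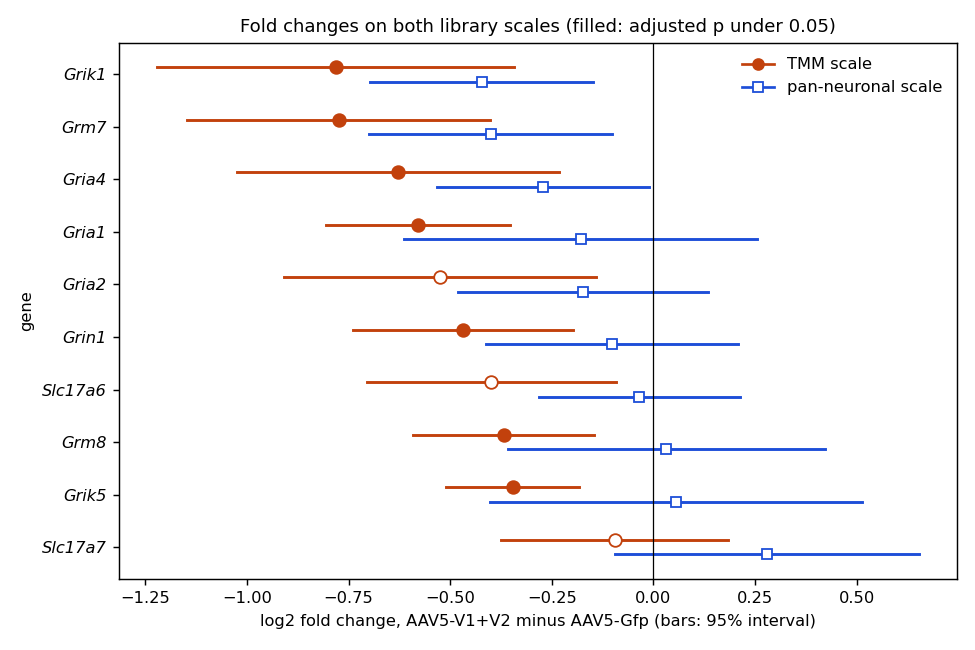
Log2 fold change of AAV5-*V1+V2* over AAV5-*Gfp* (x axis) with 95% intervals for each of the 10 genes (y axis), on the TMM scale (orange circles) and relative to the summed pan-neuronal markers (blue squares), with filled symbols for an adjusted p under 0.05. The estimates on the TMM scale are all negative and 7 are filled, whereas none is filled on the neuronal scale, where *Grik1* (-0.42) and *Grm7* (-0.40) lie lowest.

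The members differ widely in gene span, and their fold changes were set against it. All 5 members with a gene span over 300 kb (*Gria1*, *Gria4*, *Grik1*, *Grm7*, and *Grm8*) fell, and among all genes tested of that span 46.6% of 581 did. Of the 5 shorter members, *Grik5* and *Grin1* fell, and 3.87% of 17319 genes of up to 300 kb did. The share of genes that fell climbed with span, from 1.41% under 10 kb to 1.64%, 4.04%, and 15.4% in the bins from 10, 30, and 100 kb. Spearman's rho between span and log2 fold change was -0.65 over the 10 members, -0.62 over the 19 pan-neuronal markers, and -0.20 over 17900 genes with a span, as descriptions over genes that share the same 6 libraries. Of the pan-neuronal markers, *Rbfox3*, the NeuN gene (421.8 kb), had the largest difference, at -0.93. With each library's trend over gene span taken out as an offset, an alternative chosen after seeing the data, 2 of the 10 members were called lower, beside 3.31% of all genes: *Grik5* (log2 fold change -0.31, adjusted p = 0.0351 by edgeR) and *Grin1* (-0.48, 0.0369). *Grm8*, with a span of 860.1 kb, turned to 0.11 (adjusted p = 0.309 by edgeR). *Grik1* had -0.47 with the offset (adjusted p = 0.065 by edgeR) and *Grm7* -0.29 (0.062). The members' median log2 fold change with the offset was -0.32, against 0.003 over all genes. At an unadjusted p under 0.05 in edgeR's test 8 members were lower, beside 2822 of 18593 genes. The part of gene span in the result on the TMM scale was not tested beyond this offset, and whether reads in introns were counted is not given in the sources used here.

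**Figure D3:**
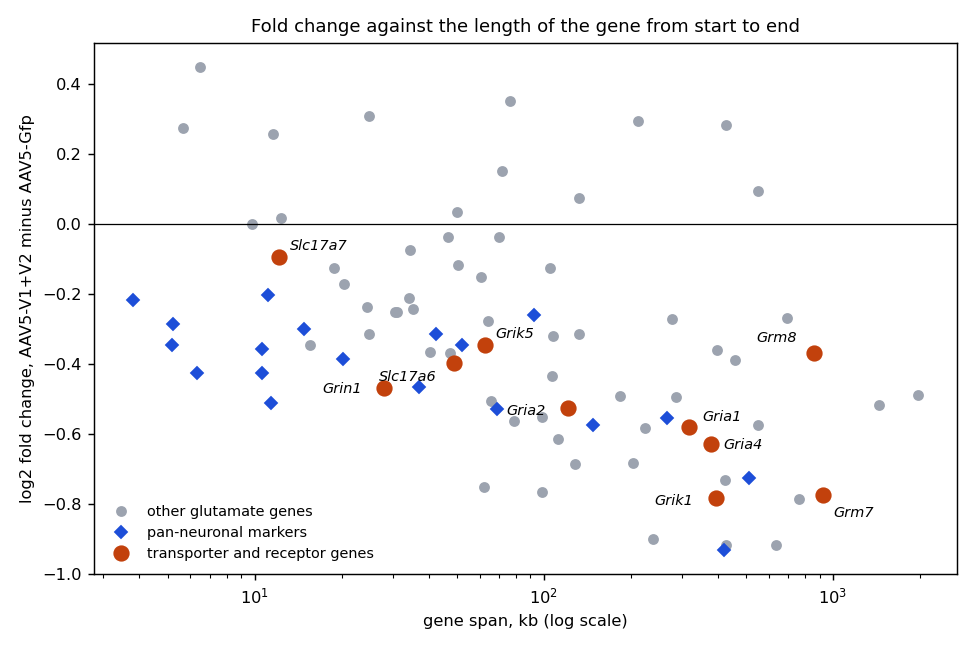
Log2 fold change on the TMM scale (y axis) against gene span in kb (x axis, log scale) for the 10 members (orange), the other glutamate genes (grey), and the pan-neuronal markers (blue diamonds). Members over 300 kb lie between -0.78 and -0.37, and *Slc17a7*, the shortest at 12.2 kb, lies at -0.10.

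Per kilobase of exon, the order of the levels in AAV5-*Gfp* DRGs was led by *Grik1* at 113 CPM per kb, followed by *Grm7* at 70.0, *Gria4* at 36.6, and *Slc17a6* at 31.97. *Slc17a7* (9.06) and *Grm8* (8.17) overlapped between libraries and were not ordered beyond their spread. Below them came *Grin1* (6.22), *Gria1* (5.50), *Grik5* (4.39), and *Gria2* (3.36), each without overlap with its neighbours. *Gria2* has 15.5 kb of annotated exons, the most among the members, which lowers its value per kilobase. Divided by the whole span instead, *Slc17a7* came first and *Grm8* last, so the order depends on whether intronic reads were counted. With AAV5-*V1+V2* more neighbours overlapped between libraries, namely *Gria4* (mean 23.7 CPM per exonic kb) with *Slc17a6* (24.3), *Grin1* (4.49) with *Gria1* (3.68), and *Gria1* with *Grik5* (3.46), whereas *Slc17a7* and *Grm8* did not.

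Ratios between members, here in 6 pairs chosen after values were seen, do not depend on the scale of the libraries. Exact two-sided permutation tests gave p-values from 0.1, the smallest that 3 libraries against 3 allow, to 0.9, or 0.3 to 0.9 after Benjamini-Hochberg adjustment, so no pair could pass. The ratio of *Slc17a6* to *Slc17a7* was 3.12, 3.52, and 4.05 with AAV5-*Gfp* and 2.63, 2.75, and 3.20 with AAV5-*V1+V2*, and the groups overlapped. *Grm7* was 4.70, 5.14, and 5.39 times as high as *Grm8* with AAV5-*Gfp* and 3.26, 4.11, and 4.15 times with AAV5-*V1+V2*, without overlap. The ratio of *Gria1* to *Gria2* was 0.637, 0.621, and 0.649 with AAV5-*Gfp* but 0.813, 0.649, and 0.460 with AAV5-*V1+V2*, a wide spread around a nearly level mean.

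Among the 57 of 60 other listed genes of glutamate signaling that passed the filter, 11 fell and 1 rose, beside the 5.27% and 10.1% of all genes, with a median log2 fold change of -0.28. On the pan-neuronal scale 1 was called lower and 0 higher, and the median turned to 0.097 while that of all genes stood at 0.39. At an unadjusted p under 0.05 in edgeR's test the numbers on the TMM scale were 27 and 2, beside 15.5% and 19.2% of all genes. Without AAV5-*Gfp* replicate 1, 2, or 3, 0 passed in either direction, and without AAV5-*V1+V2* replicate 2, 1 passed as lower. In the AMPA and delta family, *Grid1* (log2 fold change -0.79), a delta subunit, fell, and *Gria3* did not pass (-0.27, adjusted p = 0.0891 by edgeR). In the kainate family, *Grik4* (-0.92) and *Grik3* (-0.58) fell, and *Grik2* had -0.27 (adjusted p = 0.129 by edgeR). None of the other 5 NMDA subunits tested passed in edgeR's test: 1 was lower at an unadjusted p under 0.05, *Grin3a*, which missed the threshold narrowly (-0.49, adjusted p = 0.05002), and 1 was called lower by DESeq2 and 0 by limma-voom. *Grin2b* had -0.39 (adjusted p = 0.271 by edgeR) and *Grin2a* 0.28 (0.157). Among metabotropic receptors, *Grm3* (-0.90) and *Grm4* (-0.55) fell, and *Grm5* had -0.57 (adjusted p = 0.0748 by edgeR).

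Of the 12 auxiliary subunits of AMPA and kainate receptors, *Cacng4* (log2 fold change -0.75) and *Gsg1l* (-0.68) fell. Of the 15 scaffold genes, *Grip1*, which binds GluA2, fell by 0.92 on the log2 scale and *Dlg2*, encoding PSD-93, by 0.49. *Grip1* was the 1 gene of the other glutamate genes still called on the neuronal scale (-0.55, adjusted p = 0.0381 by edgeR). *Shank2* (-0.73, adjusted p = 0.0557) and the auxiliary subunit gene *Shisa9* (-0.50, adjusted p = 0.0554) missed the threshold in edgeR's test.

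Of the 5 plasma membrane transporters, which take glutamate back into cells, *Slc1a1* fell and *Slc1a3* rose. *Slc1a1*, the neuronal transporter EAAC1, had 4.62, 5.08, and 5.29 CPM with AAV5-*Gfp* and 2.86, 3.64, and 3.64 CPM with AAV5-*V1+V2* (log2 fold change -0.56, adjusted p = 0.0463 by edgeR). *Slc1a3*, the glial transporter GLAST, had 38.6, 32.5, and 35.1 CPM and then 48.4, 42.5, and 44.6 CPM, and was the 1 gene that rose (log2 fold change 0.35, standard error 0.088, adjusted p = 0.0391 by edgeR). On the pan-neuronal scale *Slc1a3* had 0.76 (adjusted p = 0.0613 by edgeR). On the TMM scale the groups did not overlap for either gene. Satellite glial and Schwann cell markers had overlapping summed levels in both groups, with 0 of 6 and 0 of 9 called in edgeR's test (1 and 1 at an unadjusted p under 0.05, 0 and 0 by DESeq2). *Slc17a8*, the remaining vesicular transporter, had -0.37 (adjusted p = 0.328 by edgeR), and *Slc1a6* had -0.21 (0.385). Of the 9 genes of glutamate and glutamine metabolism 0 passed in edgeR's test (1 at an unadjusted p under 0.05, 1 by DESeq2, 0 by limma-voom), the nearest being the aminotransferase gene *Got1* (-0.31, adjusted p = 0.0514), with *Got2* at -0.24 (0.185) and the glutaminase gene *Gls2* at -0.35 (0.207).

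**Figure D4:**
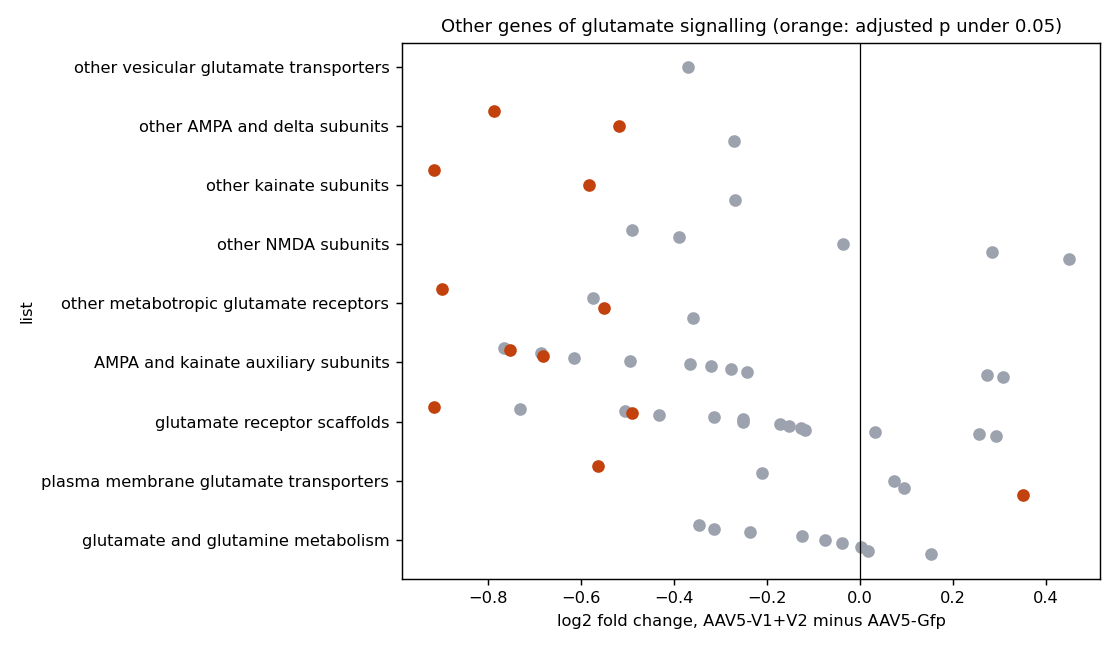
Log2 fold change of AAV5-*V1+V2* over AAV5-*Gfp* on the TMM scale (x axis) for the 57 tested genes outside the 10 members, grouped by list (y axis), with genes of adjusted p under 0.05 in orange and the rest in grey. The 11 orange points left of 0 include *Grik4* and *Grip1* at -0.92, and the 1 on the right is *Slc1a3* at 0.35.

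Markers of afferent classes were read beside the members. Of 10 unmyelinated nociceptor markers 0 were called in edgeR's test, with 7 lower and 1 higher at an unadjusted p under 0.05, and 4 lower and 1 higher by DESeq2. Of 8 myelinated afferent markers, *Ntrk3* and *Pvalb* fell and *Runx3* rose. For this list 4 were lower and 1 higher at an unadjusted p under 0.05, and equally 4 and 1 by DESeq2. Of all genes, 15.5% were lower and 19.2% higher at that unadjusted threshold in edgeR's test, and 8.64% and 12.9% by DESeq2. The nociceptor and myelinated lists had similar medians, at -0.33 and -0.29, beside -0.39 for the pan-neuronal markers, 4 of 19 of which fell, and -0.50 for the 10 members. On the pan-neuronal scale these medians were 0.038, 0.076, -0.028, and -0.14. *Runx3* had 5.33, 3.87, and 4.55 CPM with AAV5-*Gfp* and 21.2, 11.2, and 9.42 CPM with AAV5-*V1+V2*. The nociceptor marker that was higher was *Runx1*, at 250.5, 156.2, and 153.5 CPM with AAV5-*V1+V2*. The summed leukocyte markers had the same order in these libraries (1878, 953, and 736 CPM). Whether cells other than neurons gave these rises was not tested.

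The genes closest to *Gria1* across the 6 libraries, by the root mean square difference of log2 CPM centred on each gene's mean, were *Dlgap3* (0.059), *Gm29266* (0.067), *Gm42669* (0.085), *Hcn2* (0.085), and *Prkg2* (0.094), of 12378 genes with a mean of at least 5 CPM outside the lists. *Dlgap3*, a postsynaptic scaffold gene, had 12.0, 10.8, and 12.7 CPM with AAV5-*Gfp* and 7.87, 9.76, and 7.23 CPM with AAV5-*V1+V2*. *Hcn2*, which encodes a channel of the hyperpolarization-activated current, had 14.3, 13.8, and 13.1 and then 9.12, 10.7, and 8.37 CPM. In both, as in *Gria1*, AAV5-*V1+V2* replicate 2 was the highest of its group. Such likeness follows from the choice, as these genes were picked by their closeness to *Gria1* over the same libraries.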

How the data were processed

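Read counts of 6 RNA-seq libraries (TruSeq stranded total RNA) were analysed. The authors deposited whole-number counts per gene symbol without normalization. The aligner, the counter, the annotation, and the use of strand and introns are not given in the sources used here. The submitters' processing notes name GRCm38 and mm10. Groups and replicate numbers came from the sample labels.

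The filter was filterByExpr of edgeR 4.0.16 (R 4.3.3), and counts were normalized by TMM and tested with the quasi-likelihood test without a covariate, with Benjamini-Hochberg adjustment over 18593 genes. Standard errors were the absolute coefficient over the square root of F. Intervals cover 95%. Libraries held 32025612 to 34764282 counts, and within groups the chi-square per degree of freedom of pairs was 8.87 to 52.9, so no pair of libraries was a duplicate. Gene spans and exons came from GENCODE M21, and promoter windows from RefSeq. The calculations were tested on simulated counts with known fold changes in genes drawn at random. These simulated counts held no shift in cell markers and no trend over gene span like those seen here.

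The members and lists were chosen with earlier results of these data known. Named were all members, of each other glutamate list every called gene and at most 3 with the smallest adjusted p, of each marker list the 3 most abundant genes, and the 5 genes nearest to the member with the smallest adjusted p. A gene that this rule names is not reported here. Afferent markers and other genes outside this rule were chosen after their values were seen. Alternatives were RLE, upper-quartile, total-count, and pan-neuronal scales, other filters, DESeq2 1.42.0, limma-voom (limma 3.58.1), a replicate block, leaving out each library, and, added after seeing the data, the gene span offset.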

Additional observations from a re-analysis of the deposited data

How the results depend on the processing

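Counts of calls under the scales, filters, tools, block, and left-out libraries are compared here. Genes called lower numbered 980, and 14 on the pan-neuronal scale, 1606 in DESeq2, 615 with the gene span offset, and 0 to 1446 when 1 library was left out. Genes called higher numbered 1872, and 1225 on the pan-neuronal scale and 12 to 2474 with 1 library left out. Of the 10 members, 7 were called lower, and 0 on the pan-neuronal scale, 2 with the span offset, and 0 to 9 with 1 library left out, and none was called higher in any of the 16 alternatives. Of the other glutamate genes, 11 were called lower, and 1 on the pan-neuronal scale, 19 in DESeq2, 18 with the replicate block, 5 with the span offset, and 0 to 17 with 1 library left out. The 1 called higher became 2 with total counts, 0 on the pan-neuronal scale, 2 in DESeq2, 3 with the span offset, and 0 to 2 with 1 library left out. On the pan-neuronal scale, the 0 members called lower became 1 with the replicate block and 0 to 3 with 1 library left out. For these fits on the pan-neuronal scale the share of all genes called is not given here. Signs turned for *Slc17a7* (0.28 on the pan-neuronal scale, with -0.19 to 0.0035 when 1 library was left out, above 0 without AAV5-*V1+V2* replicate 1), *Grik5* (0.056 on the pan-neuronal scale), and *Grm8* (0.032 on that scale, 0.11 with the span offset). Over the 10 members and 16 alternatives, 108 values kept their direction and side of the threshold, 39 lost the call with their direction kept, 8 gained it, and 5 turned sign, of which 3 (*Grik5* and *Grm8*) lost the call too. The cause was not tested. Same-numbered libraries deviated together weakly (correlations 0.036, 0.066, and 0.11), beside -0.10 to 0.043 for libraries with different numbers. Whether a shared number marks a shared batch was not tested. With the replicate block 1341 genes were called lower and 2118 higher, 9 members were called lower, now with *Slc17a6* (adjusted p = 0.0468 by edgeR) and *Gria2* (0.0352), and 5 of the 6 libraries correlated best with their own number.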
